A study of Homo sapiens with 12 samples.

Results

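The TNF superfamily comprises 2 families of proteins, the TNF-like ligands and the TNF receptors, and their transcripts were followed in U937 cells under decitabine (DAC), the retinoid all-trans retinoic acid (ATRA), or both agents. Members were taken from the expression matrix by gene symbol: every symbol beginning with TNFSF or TNFRSF and a number, and TNF, LTA, LTB, LTBR, FAS, FASLG, CD27, CD40, CD40LG, CD70 and NGFR. This gave 44 of the 44786 symbols, 18 ligands and 26 receptors, which held 297 of the 197782 transcripts in the matrix. For each symbol the transcript whose mean across all 12 libraries was highest stood for the gene.

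U937 is an established myelomonocytic leukemia cell line, and the study used it as a model of acute myeloid leukemia (AML). Each of the 4 groups held 3 libraries: untreated cells, 200 nM DAC, 1 µM ATRA, and 200 nM DAC with 1 µM ATRA (DAC + ATRA). All groups shared the cell line and, by the labels, a medium with GM-CSF, whereas the methods name no GM-CSF and another serum content. The labels call the control untreated and give no vehicle arm for the DMSO in which ATRA was dissolved, whereas the methods describe vehicle-treated controls for the cell lines. The labels give 96 h for untreated cells and 72 h for the 3 treatments, whereas the methods give harvest at 72 h, with DAC in 3 daily doses and ATRA added only with the last of them. By the submitters' description, the libraries of a group were technical replicates, so the p-values below measure the spread between these libraries and not between independent cultures.

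TNF ligands are mostly trimeric membrane proteins that can be shed, and they cluster their receptors on neighbouring cells. Receptors with a cytoplasmic death domain (FAS, TNFRSF1A, TNFRSF10A, TNFRSF10B, TNFRSF21, TNFRSF25, NGFR) can recruit adaptors such as FADD and TRADD and activate caspase-8 or NF-κB. Decoy receptors bind the ligand without a full death domain (TNFRSF10C, TNFRSF10D) or as soluble proteins (TNFRSF11B, TNFRSF6B), and many other receptors bind TRAF proteins and feed NF-κB and MAP kinase signalling. DAC, a nucleoside analogue incorporated into DNA, inhibits DNA methyltransferases and so lowers methylation, mostly at CpG dinucleotides, and ATRA activates the nuclear retinoic acid receptors.

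The RNA-seq values are reads counted per transcript, divided by 1 size factor for each library (normalized read-counts). The libraries held 8042435 to 10683593 counted reads, of which 36.3% to 42.5% were mitochondrial. Of 11 myelomonocytic marker genes, 10 were measured above the filter given below, and their summed level was 61088 to 68346 in untreated cells, 38963 to 56416 with DAC, 41443 to 59299 with ATRA and 36056 to 38757 under the combination. In untreated cells most of this sum was MPO (myeloperoxidase), at 49005 to 55158 there and 14199 to 15452 with DAC + ATRA, and the sum of the other 10 genes moved the other way, from 12083 to 13819 in untreated cells to 18823 to 23927 with DAC, 15187 to 21783 with ATRA and 21856 to 23305 with DAC + ATRA. By limma, with DAC + ATRA 5 of the 10 markers tested were higher (CEBPA, CSF1R, ITGAM, ITGAX and LYZ, beside 25.5% of all transcripts), MPO was lower (beside 16.1%), and CD4, CD33, FCGR1A and SPI1 did not pass, at log2 FC of 0.26, -0.15, -0.28 and -0.10. CSF1R passed the filter only through the DAC + ATRA libraries. CEBPA, at 6892 to 8764 in untreated cells and 12435 to 13714 with DAC + ATRA, made up most of the sum without MPO. The summed level of 4 T cell markers was 2.76 to 10.2 in untreated cells, 297 to 390.4 with DAC, 4.55 to 9.50 with ATRA and 135 to 179 with DAC + ATRA, and only CD2 of the 4 passed the filter. The summed level of 4 B cell markers ran over 485 to 557, 874 to 940.1, 502 to 719 and 1654 to 1780 in the same order, with 3 of 4 above the filter. For 4 fibroblast markers it was 13.7 to 21.2, 201 to 259, 45.4 to 50.1 and 118 to 153, with COL3A1 and DCN at 0. These sums moved with the treatments, as did many members, and their part in the results was not tested. In bulk RNA, fewer cells of a type and less RNA per cell cannot be told apart.

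Promoter sequences are shown for 4 members that stand for different responses, with every CpG in capitals, since CpG is the dinucleotide that DNA methyltransferases modify. TNFRSF11A rose strongly with DAC, TNFSF9 and TNFRSF9 rose with DAC and with ATRA, and TNFRSF1A fell with DAC. Each sequence is the 250 bases before the RefSeq start of the gene in GRCh38.p14, read 5′ to 3′ on the strand of the gene: chr18:62325060-62325309 on the plus strand for TNFRSF11A, chr19:6530776-6531025 on the plus strand for TNFSF9, chr1:7940840-7941089 on the minus strand for TNFRSF9 and chr12:6342077-6342326 on the minus strand for TNFRSF1A.
TNFRSF11A: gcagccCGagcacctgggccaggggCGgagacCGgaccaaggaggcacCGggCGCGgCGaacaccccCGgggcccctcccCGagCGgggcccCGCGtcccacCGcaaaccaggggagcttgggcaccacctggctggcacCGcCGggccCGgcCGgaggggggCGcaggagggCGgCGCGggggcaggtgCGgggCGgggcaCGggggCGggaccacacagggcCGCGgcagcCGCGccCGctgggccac
TNFSF9: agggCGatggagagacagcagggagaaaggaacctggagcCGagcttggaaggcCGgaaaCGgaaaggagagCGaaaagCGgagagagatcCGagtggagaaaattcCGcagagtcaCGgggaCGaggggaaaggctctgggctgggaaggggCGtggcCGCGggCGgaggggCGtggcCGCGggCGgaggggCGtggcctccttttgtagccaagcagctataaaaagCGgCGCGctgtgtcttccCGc
TNFRSF9: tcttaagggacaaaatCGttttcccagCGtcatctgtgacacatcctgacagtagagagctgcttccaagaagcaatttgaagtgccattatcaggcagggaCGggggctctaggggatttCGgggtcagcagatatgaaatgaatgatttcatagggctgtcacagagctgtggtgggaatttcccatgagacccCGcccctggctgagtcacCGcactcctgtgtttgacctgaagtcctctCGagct
TNFRSF1A: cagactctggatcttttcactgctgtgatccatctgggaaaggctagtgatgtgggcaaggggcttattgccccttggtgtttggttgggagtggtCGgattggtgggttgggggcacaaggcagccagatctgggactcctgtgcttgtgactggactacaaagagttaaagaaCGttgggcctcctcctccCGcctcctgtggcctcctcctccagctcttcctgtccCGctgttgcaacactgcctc
These stretches hold 30, 23, 7 and 4 CpGs, respectively. For TNFRSF1A, the counted transcript starts 228 bases downstream of the RefSeq start, and the TNFRSF9 transcript of the matrix could not be placed in GENCODE 44.

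Over the full window of 250 bases before to 50 bases after the start, 34796 RefSeq promoters had a median of 14 CpGs. Of the 19 members tested below, 10 had an entry, and CD70, NGFR, TNFSF8, TNFRSF13C, TNFRSF12A, TNFRSF10A, TNFRSF10B, TNFRSF10C and TNFRSF10D did not. The 4 matched members that rose with DAC held 37 (TNFRSF11A), 27 (TNFSF9), 23 (TNFRSF21) and 8 CpGs (TNFRSF9). TNFRSF1A, which fell, held 4, but its counted transcript starts 228 bases downstream of the RefSeq start, outside this window. The counted TNFRSF9 transcript could not be placed, so its window is uncertain too. Whether the number of CpGs goes with the response was not tested. Of the 5 matched members that did not pass with DAC, FAS held 18 and TNFSF14 held 11, and their counted transcripts start 29 and 43 bases downstream of the RefSeq start. LTBR, TNFSF4 and TNFSF13B held 29, 6 and 0, but their counted transcripts start at 1678, -1799 and 598 bases from the RefSeq start (negative is upstream), so these windows are not those of the transcripts tested. The hexamers AGGTCA and AGTTCA, which retinoic acid receptors can bind, were searched on both strands and occurred in 22.6% of all promoters and in those of TNFRSF9 and TNFSF13B. The NF-κB consensus, which was searched on both strands as well, occurred in 11.3% of all promoters and in those of TNFRSF9 and TNFSF14. These matches describe letters and not bound sites.

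Of the 44 members, 19 reached a normalized read-count of 10 in at least 3 libraries and were tested, 6 ligands and 13 receptors. A further 13 had reads below this filter, and 12 had no read in any of their transcripts. Differences were tested with limma on log2 of the normalized read-count plus 1, fitted on all 19373 transcripts above the filter and all 12 libraries, with Benjamini-Hochberg adjustment and a threshold of 0.01. Fold changes (FC) are given as log2 FC on this scale, which understates the change of low values. A member is called upregulated or downregulated where it passed.

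With DAC, 11 of 19 members passed, against 33.5% of all transcripts tested. Of these, 9 were upregulated and 2 downregulated, beside 22.2% and 11.3% of all transcripts. With ATRA, 3 of 19 passed against a background of 6.97%, all upregulated (5.11% up and 1.87% down in the background). With DAC + ATRA, 12 of 19 passed against 41.6%, 10 upregulated (background 25.5%) and 2 downregulated (16.1%). The median absolute log2 FC of the members was 0.95 for DAC, 0.27 for ATRA and 1.46 for the combination, beside 0.53, 0.26 and 0.62 over all transcripts. In 1 or more of the 6 pairwise comparisons between groups, 14 of 19 members passed, against 51.9% of all transcripts, and the 5 that did not were LTBR, TNFRSF10B, TNFRSF12A, TNFSF4 and TNFSF13B. A filter that needs only 3 libraries keeps genes that are high in a single group, so these shares describe the tested members and not the families. TNFRSF10A, TNFRSF10C and TNFRSF12A reached 10 only in libraries with DAC, and TNFRSF11A in only 1 other library (10.2). The filter thus favoured a rise of these members with DAC, and the counts with DAC are not independent of it.

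**Figure D1:**
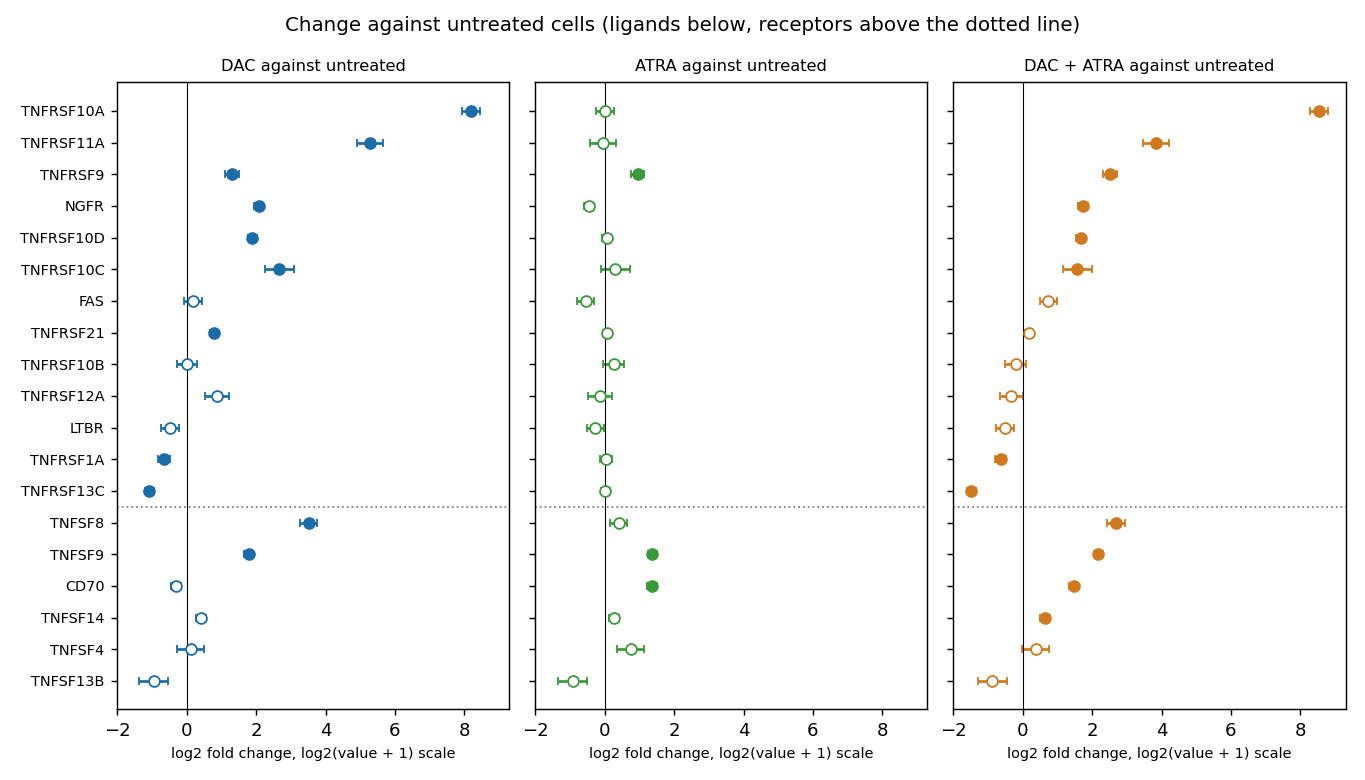
Log2 fold change of the 19 tested members against untreated cells on the log2(normalized read-count + 1) scale, for DAC (left), ATRA (middle) and the combination (right). Points are limma estimates, bars their standard errors, and filled points have an adjusted p under 0.01: 11, 3 and 12 members, respectively. TNFRSF10A and TNFRSF11A lie farthest to the right with DAC and with DAC + ATRA and at 0 or near it with ATRA.

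Among the ligands, TNFSF9 (4-1BB ligand, chr19:6531026-6535924, plus strand), which costimulates T cells, was upregulated by every treatment. TNFSF9 was at 248, 251 and 259.5 in untreated cells, 866, 798 and 964 with DAC, 657, 788 and 543 with ATRA, and 1104, 1255 and 1105 with DAC + ATRA. The 4 groups did not overlap, and they were ordered untreated, ATRA, DAC and DAC + ATRA. The log2 FC was 1.78 with DAC (SE 0.12, limma adjusted p = 8.2e-12), 1.37 with ATRA (SE 0.12, adjusted p = 5.4e-09) and 2.18 with DAC + ATRA (SE 0.12, adjusted p = 1.0e-13). Its level with DAC was above that with ATRA (log2 FC 0.41, limma adjusted p = 0.0099), a call that was lost without any 1 of 10 libraries, with edgeR, with TMM scaling, with a pseudocount of 0.1, and with only these 2 groups fitted. TNFRSF9 (4-1BB, CD137), the receptor of TNFSF9, was upregulated by the same treatments. TNFRSF9 was at 25.7, 23.7 and 20.3 in untreated cells, 56.2, 70.1 and 50.8 with DAC, 53.9, 37.3 and 47.4 with ATRA, and 132, 141 and 137 with DAC + ATRA. Its log2 FC was 1.30 with DAC (SE 0.19, limma adjusted p = 4.1e-06), 0.95 with ATRA (SE 0.19, adjusted p = 0.0010) and 2.51 with DAC + ATRA (SE 0.19, adjusted p = 3.6e-11). The DAC and ATRA groups overlapped, and the DAC + ATRA libraries lay above every other library. Without ATRA library 7 the ATRA call was lost (log2 FC 0.84, limma adjusted p = 0.011), as it was with only the ATRA and untreated groups fitted (adjusted p = 0.011).

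CD70 (chr19:6590103-6604103, minus strand), the ligand of CD27, responded to ATRA. CD70 was at 146, 142 and 146 in untreated cells, 149, 102 and 104 with DAC, 348, 379 and 390.3 with ATRA, and 368, 434 and 404 with DAC + ATRA. The groups with ATRA lay above every library without it, at a log2 FC of 1.36 with ATRA (SE 0.14, limma adjusted p = 6.6e-08) and 1.46 with DAC + ATRA (SE 0.14, adjusted p = 2.5e-09). DAC alone gave a log2 FC of -0.31 (limma adjusted p = 0.075). Without DAC library 4, which lay at the untreated level, CD70 passed as lower with DAC (-0.49, limma adjusted p = 0.0051). DAC + ATRA differed from ATRA by 0.11 (adjusted p = 0.58). CD27, its receptor, had 2 reads in all 12 libraries. The CD70 values above are those of ENST00000597430, which held 71.9% of the reads of the gene. For the coding transcript ENST00000245903, ATRA missed the threshold (log2 FC 0.70, limma adjusted p = 0.016) and DAC + ATRA passed (1.05, adjusted p = 5.7e-05). ENST00000423145 was at a log2 FC of -0.06 with ATRA (limma adjusted p = 0.93).

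TNFSF8 (CD30 ligand, chr9:114901145-114930591, minus strand) followed DAC. TNFSF8 was at 7.35, 12.7 and 7.39 in untreated cells, 112, 126 and 98.6 with DAC, 14.8, 11.8 and 9.99 with ATRA, and 47.9, 76.8 and 66.7 with DAC + ATRA. All 6 libraries with DAC lay above the 6 without it, with a log2 FC of 3.51 with DAC (SE 0.25, limma adjusted p = 1.5e-11) and 2.69 with DAC + ATRA (SE 0.25, adjusted p = 1.5e-09). The DAC + ATRA libraries lay below the DAC libraries, and this difference missed the threshold (log2 FC -0.82, limma adjusted p = 0.027), while it passed with edgeR, with DESeq2 and with only these 2 groups fitted. Its receptor TNFRSF8 (CD30) had no read.

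TNFSF14 (LIGHT), a ligand of LTBR and TNFRSF14, changed least among the called ligands. TNFSF14 was at 280.3, 188 and 171 in untreated cells, 249.7, 299 and 281 with DAC, 277, 249 and 227 with ATRA, and 313, 312 and 352 with DAC + ATRA. Untreated library 1 stood as high as the libraries with a single agent, and DAC + ATRA lay above all untreated libraries (log2 FC 0.64, SE 0.15, limma adjusted p = 0.00095). With DAC alone the log2 FC of 0.41 missed the threshold (limma adjusted p = 0.032), and without untreated library 1 it was 0.62 and passed (adjusted p = 0.0012). For DAC + ATRA without untreated library 3, the log2 FC was 0.50 and the adjusted p = 0.014. TNFSF4 (OX40 ligand) and TNFSF13B (BAFF) passed in no comparison and had ranges of 4.62 to 19.0 and 4.21 to 20.2 over the 12 libraries. The counted TNFSF13B transcript has no defined coding sequence, and no protein-coding TNFSF13B transcript was tested.

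**Figure D2:**
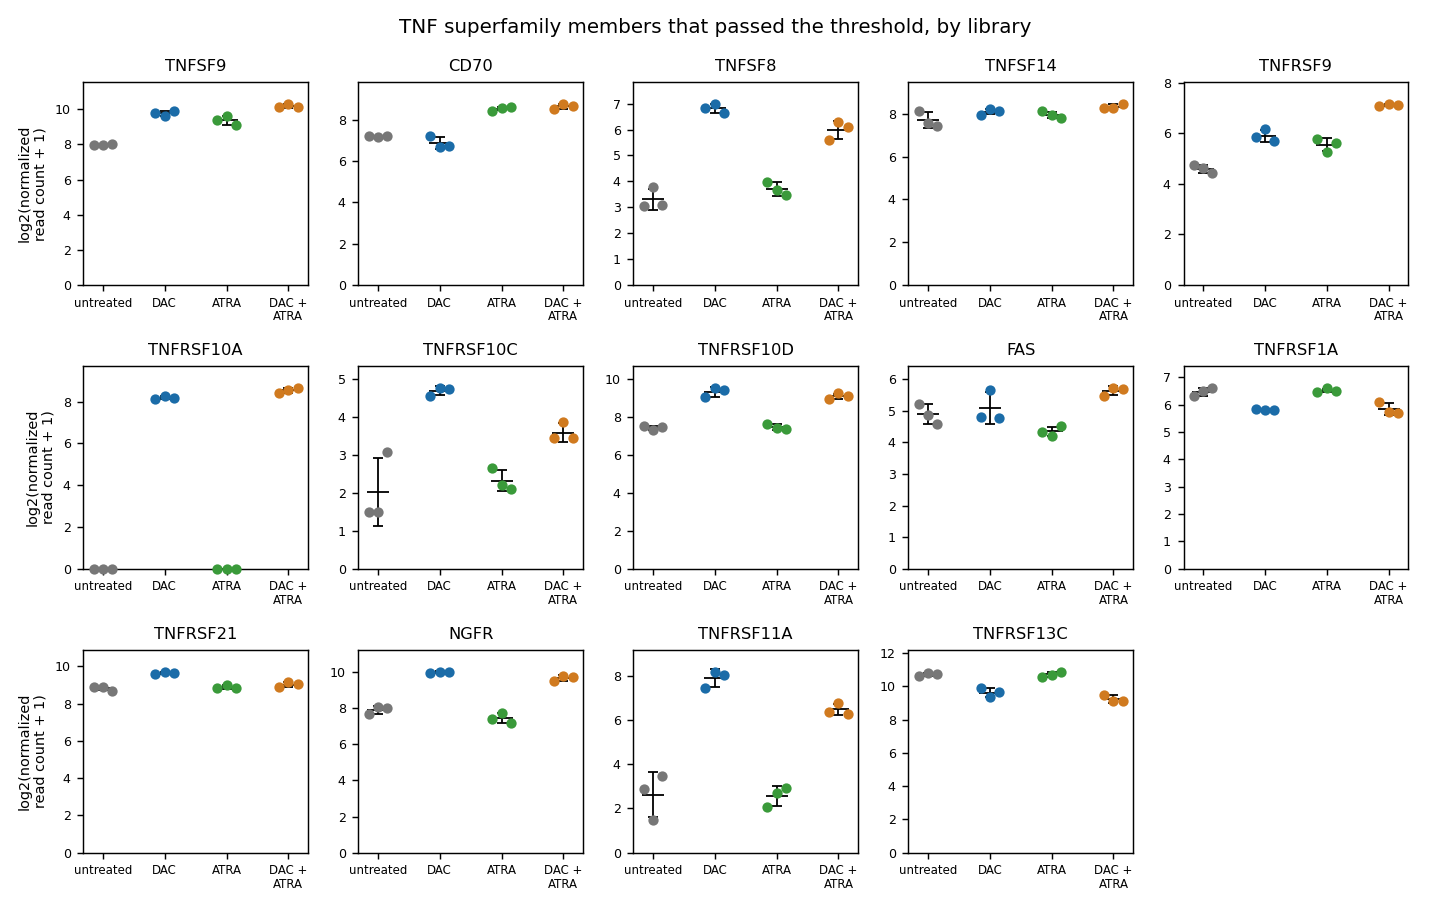
Log2(normalized read-count + 1) in each of the 12 libraries for the 14 members that passed the threshold in at least 1 pairwise comparison. Points are libraries, horizontal bars group means and vertical bars SDs (n = 3 a group). TNFRSF10A is at 0 in all 6 libraries without DAC, CD70 is high in the 6 libraries with ATRA, and TNFRSF21 is high with DAC and not with DAC + ATRA.

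The receptors of TNFSF10 (TRAIL), a ligand that can trigger apoptosis, lie next to each other on chromosome 8. Of these 4 genes, 3 were upregulated by DAC, beside 22.2% of all transcripts. TNFRSF10A and TNFRSF10C passed the filter only through libraries with DAC, which favours such a call. Of the 3, only TNFRSF10D was tested without need of those libraries. TNFRSF10A (TRAIL-R1, chr8:23190452-23225102, minus strand) is a death receptor. TNFRSF10A was at 0 in all 3 untreated and all 3 ATRA libraries, at 275, 304 and 291 with DAC, and at 337, 372 and 402 with DAC + ATRA. Against a floor of 3 reads per library it was at least 105-fold higher than in untreated cells with DAC and at least 134-fold higher with the combination. The difference between DAC + ATRA and DAC was 0.35 on the log2 scale (SE 0.26, limma adjusted p = 0.44).

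The decoy receptors followed DAC as well. TNFRSF10D (chr8:23135588-23164027, minus strand) was at 180.1, 157 and 175 in untreated cells, 521, 736 and 669 with DAC, 197, 171 and 162 with ATRA, and 492, 600.0 and 539 with DAC + ATRA. TNFRSF10D was upregulated with a log2 FC of 1.90 with DAC (SE 0.14, limma adjusted p = 1.5e-11) and 1.66 with DAC + ATRA (SE 0.14, adjusted p = 1.1e-10), and the untreated and ATRA groups overlapped. TNFRSF10C (chr8:23102921-23117445, plus strand) was at 1.84, 1.82 and 7.39 in untreated cells, 22.7, 26.3 and 25.9 with DAC, 5.28, 3.64 and 3.33 with ATRA, and 9.94, 13.7 and 9.89 with DAC + ATRA. Its log2 FC was 2.67 with DAC (SE 0.41, limma adjusted p = 8.0e-06) and 1.57 with DAC + ATRA (SE 0.41, adjusted p = 0.0026). These counts were low, at most 27 reads in a library, and the call with DAC + ATRA was lost with DESeq2 (adjusted p = 0.020) and in limma without untreated library 1, untreated library 2 or DAC + ATRA library 11 (adjusted p of 0.017, 0.019 and 0.017). Against ATRA, TNFRSF10C missed the threshold with DAC + ATRA (log2 FC 1.26, limma adjusted p = 0.017) and passed without untreated library 3 (adjusted p = 0.0076).

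TNFRSF10B (TRAIL-R2), the other death receptor for TRAIL, depended on which transcript was read. Its highest transcript, ENST00000520109, retains an intron, held 46.5% of the reads of the gene and ranged from 10.8 to 23.7 over the 12 libraries, with a log2 FC of 0.01 with DAC (SE 0.30, limma adjusted p = 0.98). The protein-coding transcript ENST00000276431, none of whose 3998 bases was free of other transcripts, was at 0.919, 0.910 and 0 in untreated cells, 15.1, 10.7 and 14.9 with DAC, 1.06, 0.910 and 1.67 with ATRA, and 9.04, 22.1 and 29.7 with DAC + ATRA. All libraries with DAC lay above all libraries without it. The transcript passed the filter only through libraries with DAC, which favours such a difference. The 40 reads with DAC against 2 in untreated cells gave a ratio of 22.1 after scaling (95% exact interval for counting error only, 5.74 to 189), and the limma log2 FC was 3.23 (adjusted p = 1.4e-06). With DAC + ATRA, 55 reads gave a ratio of 31.4 (8.28 to 266). TNFSF10 itself, the ligand, had at most 4 reads in a library.

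**Figure D3:**
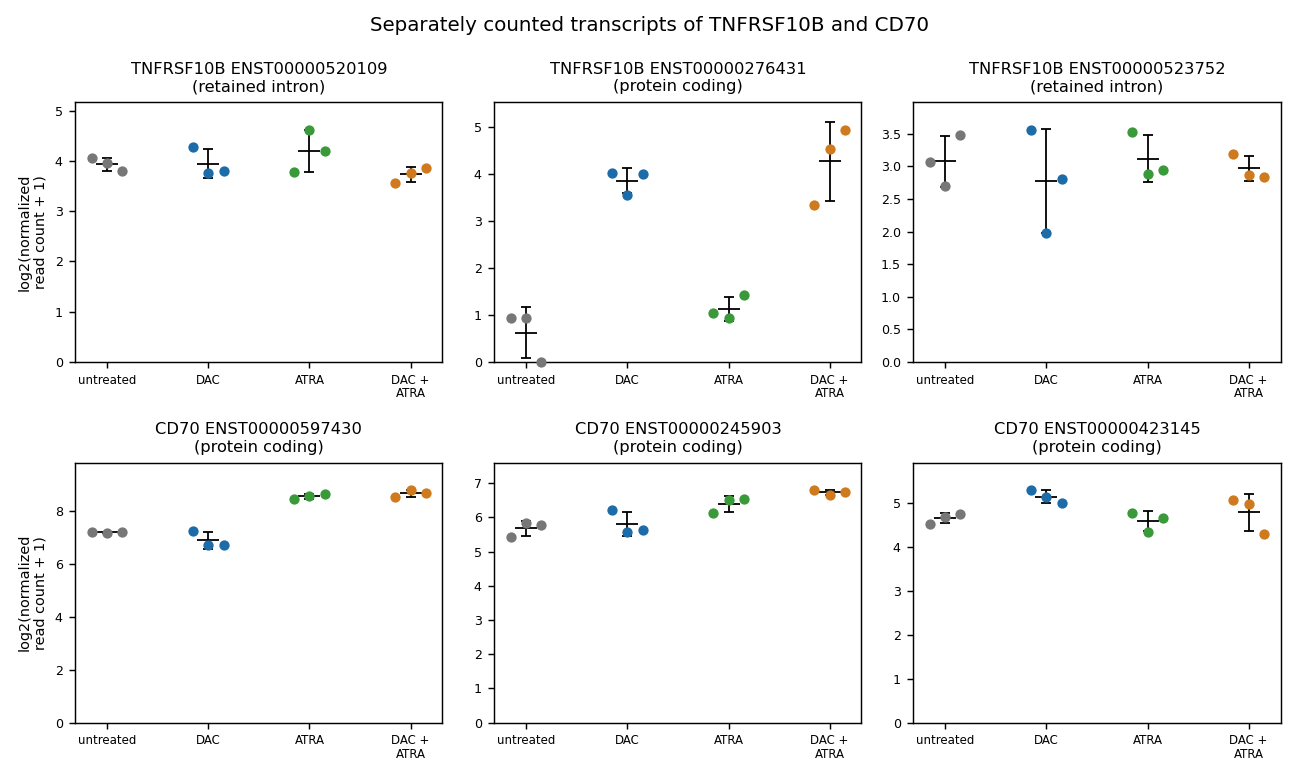
Log2(normalized read-count + 1) per library for the 3 transcripts each of TNFRSF10B and CD70 that passed the filter, with group means and SDs (n = 3 a group). The protein-coding TNFRSF10B transcript is higher in the 6 libraries with DAC, with no such difference in the 2 retained-intron transcripts. For CD70, the transcripts ENST00000597430 and ENST00000245903 have their highest values with DAC + ATRA, and ENST00000423145 passed in no comparison.

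FAS (CD95, chr10:88990827-89015542, plus strand), a death receptor, passed in 1 comparison. None of the 2067 bases of its counted transcript was free of other transcripts. FAS was at 35.8, 28.2 and 23.1 in untreated cells, 27.0, 49.7 and 25.9 with DAC, 19.0, 17.3 and 21.6 with ATRA, and 43.4, 51.6 and 50.7 with DAC + ATRA. DAC + ATRA lay above ATRA (log2 FC 1.29, SE 0.25, limma adjusted p = 0.00018), and its difference from untreated cells missed the threshold (log2 FC 0.74, adjusted p = 0.016). It passed in limma with only these 2 groups fitted (adjusted p = 0.0052) and without DAC library 5 (adjusted p = 0.0087). DAC library 5 stood above the other DAC libraries and as high as those of DAC + ATRA. FASLG, its ligand, had at most 3 reads in a library.

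TNFRSF1A (TNF receptor 1, chr12:6328791-6341848, minus strand) was downregulated by DAC. TNFRSF1A was at 79.0, 89.2 and 97.0 in untreated cells, 56.2, 55.5 and 54.8 with DAC, 86.6, 95.6 and 89.9 with ATRA, and 66.9, 52.6 and 50.7 with DAC + ATRA. It fell by 0.66 with DAC (SE 0.17, limma adjusted p = 0.0024) and by 0.64 with DAC + ATRA (SE 0.17, adjusted p = 0.0025) on the log2 scale, with no overlap between libraries with and without DAC. Both calls were lost when transcripts below the filter were included (limma adjusted p of 0.015 and 0.016) and without untreated library 2 (0.011 for both) or untreated library 3 (0.019 for both). The DAC + ATRA call was lost also without DAC + ATRA library 11 (0.014) or 12 (0.017). The counted transcript retains an intron, and 216 of its 2990 bases belong to no other transcript. TNFRSF1B (TNF receptor 2) had no read.

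TNFRSF21 (death receptor 6, chr6:47231532-47309905, minus strand) was upregulated by DAC and not by DAC + ATRA. TNFRSF21 was at 476, 479.7 and 415 in untreated cells, 762, 836 and 784 with DAC, 453, 519 and 462 with ATRA, and 469, 563 and 523 with DAC + ATRA. The 3 DAC libraries lay above all others, and the other 3 groups overlapped. DAC gave a log2 FC of 0.80 (SE 0.11, limma adjusted p = 2.2e-06) and DAC + ATRA 0.18 (SE 0.11, adjusted p = 0.18), and the direct comparison of DAC + ATRA with DAC gave -0.62 (SE 0.11, adjusted p = 0.00028). NGFR (p75 neurotrophin receptor, chr17:49495293-49515008, plus strand), which binds neurotrophins, was at 200.4, 267 and 259 in untreated cells, 973, 1034 and 1028 with DAC, 170.0, 214 and 145 with ATRA, and 711, 882 and 837 with DAC + ATRA. NGFR was upregulated with DAC (log2 FC 2.07, SE 0.14, limma adjusted p = 4.5e-12) and with DAC + ATRA (1.74, SE 0.14, adjusted p = 8.1e-11), and ATRA alone missed the threshold at -0.46 (adjusted p = 0.030). Without ATRA library 8, the highest of its group, NGFR passed as lower with ATRA (-0.61, limma adjusted p = 0.0056).

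TNFRSF11A (RANK, chr18:62325310-62391288, plus strand), the receptor for the osteoclast differentiation factor TNFSF11 (RANKL), had the second largest log2 FC with DAC among the tested members. TNFRSF11A was at 6.43, 1.82 and 10.2 in untreated cells, 174, 289 and 264 with DAC, 3.17, 5.46 and 6.66 with ATRA, and 82.3, 108 and 76.6 with DAC + ATRA. Its mean was 39.5 times the untreated mean with DAC (log2 FC 5.27, SE 0.37, limma adjusted p = 4.5e-10) and 14.5 times with DAC + ATRA (log2 FC 3.85, SE 0.37, adjusted p = 3.4e-08). The DAC + ATRA libraries lay below the DAC libraries, with a log2 FC of -1.42 (SE 0.37) that missed the threshold (limma adjusted p = 0.013) and passed with edgeR, with DESeq2 and in limma without a filter, with sums per symbol, with only these 2 groups fitted, or without untreated library 2 or 3. TNFSF11 had 1 read in all libraries, and TNFRSF11B (osteoprotegerin, its soluble decoy receptor) ranged from 2.47 to 7.39.

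TNFRSF13C (BAFF receptor, chr22:41922032-41926806, minus strand), which supports B cell survival, was downregulated by DAC. TNFRSF13C was at 1566, 1762 and 1724 in untreated cells, 950.2, 658 and 799.8 with DAC, 1538, 1679 and 1891 with ATRA, and 721, 554 and 547 with DAC + ATRA. It fell by 1.08 with DAC (SE 0.13, limma adjusted p = 1.5e-07) and by 1.48 with DAC + ATRA (SE 0.13, adjusted p = 4.4e-10) on the log2 scale. The ATRA and untreated groups overlapped, at a log2 FC of 0.01 (SE 0.13, limma adjusted p = 0.99), and DAC + ATRA differed from DAC by -0.40 (adjusted p = 0.040). The other B cell receptors of this family, TNFRSF13B (TACI) and TNFRSF17 (BCMA), had no read.

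LTBR (lymphotoxin beta receptor) and TNFRSF12A (Fn14, the receptor of TWEAK) passed in no comparison. Both counted transcripts retain an intron, and that of LTBR held 30.3% of the reads of the gene. No protein-coding transcript of LTBR or TNFRSF12A passed the filter, so none was tested. LTBR ranged from 18.5 to 36.0, and 4 further LTBR transcripts passed the filter. Among them, ENST00000440421, a retained-intron transcript, was lower in DAC + ATRA libraries than in untreated ones (log2 FC -0.91, limma adjusted p = 0.0082) and than with ATRA (-1.09, adjusted p = 0.0027). TNFRSF12A was at 14.9 to 17.5 with DAC and at 5.83 to 9.50 in the other 9 libraries, and its log2 FC of 0.88 with DAC missed the threshold (limma adjusted p = 0.036). In all, 8 further transcripts of 3 members passed the filter. By limma, 3 of them passed the test with DAC + ATRA, 1 with DAC and 0 with ATRA, beside 41.6%, 33.5% and 6.97% of all transcripts. The 1 called with DAC was the protein-coding TNFRSF10B transcript, which passed the filter only through libraries with DAC.

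The 13 members with reads below the filter had at most 14 reads in a library. CD40, the costimulatory receptor of antigen-presenting cells, had 21 reads in untreated cells, 2 with DAC, 15 with ATRA and 11 under the combination, and TNFSF18 (GITR ligand) had 4, 21, 16 and 17 reads. When all transcripts with a read were tested by limma, CD40 was lower with DAC (log2 FC -2.16, adjusted p = 0.0014) and TNFSF18 higher with DAC (1.89, adjusted p = 0.0054). In that fit, TNFSF12 (TWEAK) and TNFRSF18 (GITR) were higher with DAC + ATRA (log2 FC 2.14 and 1.92, adjusted p = 0.0034 and 0.0086), from 14 and 8 reads against 1 and 0. The remaining members below the filter, TNFRSF11B, TNFSF15, TNFSF10, TNFRSF4, FASLG, TNFRSF25, CD27, TNFSF13 and TNFSF11, gave no such call. A count of 3 reads corresponds to a normalized read-count of 2.50 to 3.71, depending on the library.

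No read was listed for TNF, LTA, LTB, CD40LG, TNFSF12-TNFSF13 (a read-through of 2 neighbouring ligand genes), TNFRSF1B, TNFRSF6B, TNFRSF8, TNFRSF13B, TNFRSF14, TNFRSF17 or TNFRSF19. For 6 of these, the transcript taken had no base free of other transcripts, but FAS, with 0 of 2067 such bases, had 398 reads. How reads shared between transcripts were counted is not given in the sources used here. TNF itself has all 1678 bases to itself among the placed transcripts, but 7 of its 8 transcripts in the matrix could not be placed. These zeros therefore describe the count table, and no absence of the RNA was read from them.

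The DAC effect without ATRA and with ATRA was set side by side, from pairs of groups that share no library. DAC against untreated called 11 members, and DAC + ATRA against ATRA called 10 (background 29.4%), 8 upregulated (19.1%) and 2 downregulated (10.2%). Both called 9 of 19 members, all in the same direction, as they did 22% of all transcripts: TNFSF8, TNFSF9, TNFRSF9, TNFRSF10A, TNFRSF10D, TNFRSF11A and NGFR higher, and TNFRSF1A and TNFRSF13C lower. Of these, TNFRSF10A and TNFRSF11A passed the filter only through libraries with DAC, which favours a higher call in both comparisons. Over the 19 members the 2 sets of log2 FC had a Pearson correlation of 0.95, and 0.90 without TNFRSF10A, which is a description across genes. For ATRA, the comparisons without DAC and with DAC (DAC + ATRA against DAC, background 8.77%, with 5.18% up and 3.59% down) called 3 members each and shared CD70 and TNFRSF9, beside 3.73% of all transcripts called in both in the same direction, with a correlation of 0.46. Against DAC, the combination was higher for CD70 (log2 FC 1.77, SE 0.14, limma adjusted p = 6.7e-10) and TNFRSF9 (1.21, SE 0.19, adjusted p = 4.8e-05) and lower for TNFRSF21. In this comparison edgeR called 6 members against 10.3% of all transcripts and DESeq2 5 against 8.81%, both adding TNFRSF11A and TNFSF8 as lower, and edgeR TNFSF9 as higher. The direct comparison of DAC with ATRA called 11 members against a background of 27%, with CD70, TNFRSF13C and TNFRSF1A lower with DAC (background 9.04%) and 8 members higher (18%).

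**Figure D4:**
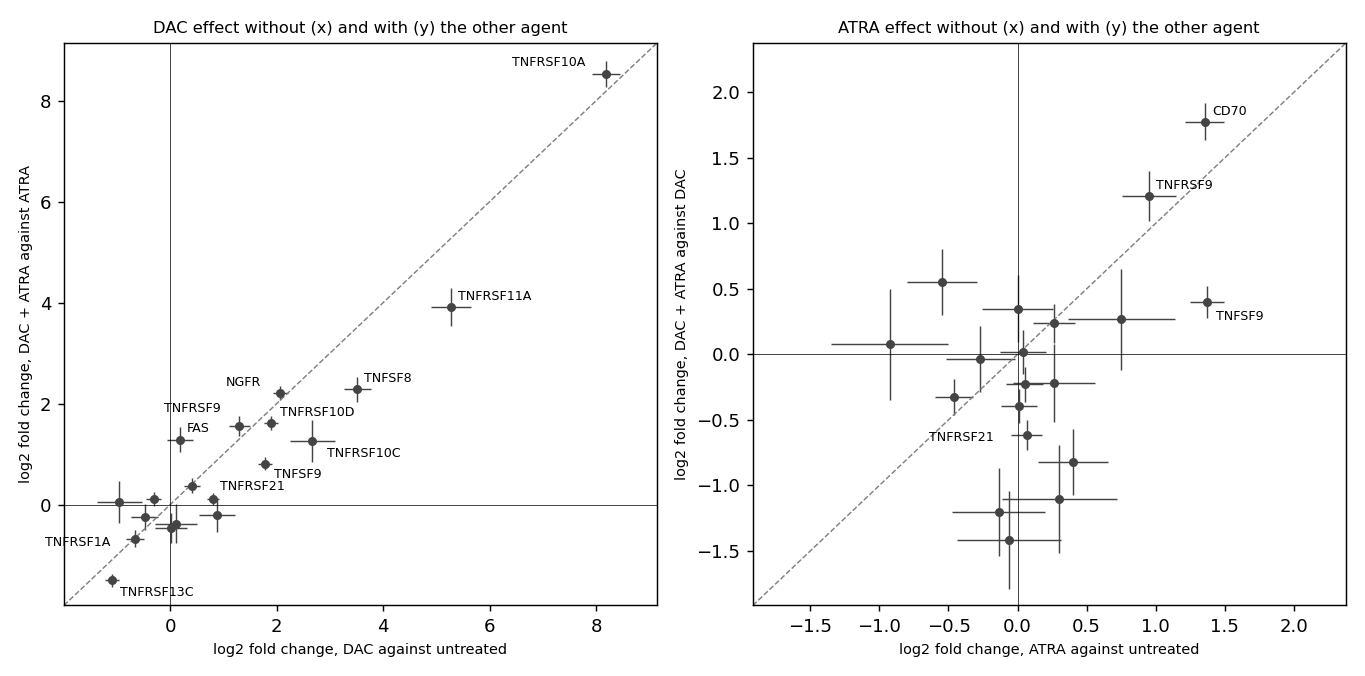
Log2 fold changes of the 19 tested members for DAC without (x axis) and with ATRA (y axis) on the left, and for ATRA without and with DAC on the right. Points are limma estimates with standard errors on both axes, the dashed line marks equal changes, and members called on either axis are named. On the left, TNFRSF10C, TNFRSF11A, TNFSF8, TNFRSF12A, TNFSF9 and TNFRSF21 lie farthest below the line (by 1.41 to 0.68) and FAS farthest above it (by 1.10), and on the right CD70 and TNFRSF9 are the members called on both axes for ATRA.

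The DAC × ATRA interaction is 0 when the log2 FC of the single agents add up to that of the combination. It passed for 1 of 19 members, TNFSF9, against 1.51% of all transcripts (0.527% positive, 0.986% negative), at -0.97 (SE 0.18, limma adjusted p = 0.0012): the single agents gave 1.78 and 1.37, and the combination 2.18. TNFRSF21 had an interaction of -0.68 (SE 0.16) that missed the threshold (limma adjusted p = 0.014), and without ATRA library 9 it passed as well (-0.71, adjusted p = 0.0049), which raised the count to 2. It passed with edgeR and DESeq2 too, whose backgrounds were 1.37% and 1.56%. The most negative interactions among the members not called were -1.41 (SE 0.59) for TNFRSF10C, -1.36 (SE 0.53) for TNFRSF11A, -1.23 (SE 0.36) for TNFSF8 and -1.07 (SE 0.48) for TNFRSF12A, with limma adjusted p from 0.059 to 0.29. On the positive side, FAS had 1.10 (SE 0.36, limma adjusted p = 0.10) and TNFSF13B 1.00 (SE 0.60, adjusted p = 0.47). For CD70 and TNFRSF9 it was 0.42 (SE 0.20) and 0.26 (SE 0.27). None of these 8 differed detectably by limma from additive log2 changes at this depth and number of libraries.

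Downstream of the receptors, 49 of 75 listed genes of TNF receptor signalling passed the filter. With DAC, 18 of the 49 (36.7%) passed, 17 of them upregulated, with ATRA 5 (10.2%), and with DAC + ATRA 23 (46.9%), 20 of them upregulated. The backgrounds over all transcripts were 33.5%, 6.97% and 41.6%, near the list's shares for DAC and DAC + ATRA. The median log2 FC of the list was 0.38, 0.09 and 0.50, beside 0.05, 0.00 and 0.05 for all transcripts.

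The counts below are to be read beside the background with DAC + ATRA, 25.5% higher and 16.1% lower over all transcripts. Among 13 receptor adaptors and proximal kinases, 3 were upregulated and 1 downregulated with DAC + ATRA. RIPK3, the kinase that triggers necroptosis, rose with DAC (log2 FC 1.19), ATRA (1.61) and DAC + ATRA (2.47, SE 0.22, limma adjusted p = 4.4e-10). MLKL, which RIPK3 phosphorylates, rose with DAC + ATRA too. TRAF1, an adaptor of TNFRSF9 and other receptors, rose with DAC (1.78) and DAC + ATRA (1.40, SE 0.19, limma adjusted p = 1.2e-06), and TAB1 fell by 0.37 with DAC + ATRA. Of 9 ubiquitin ligases, deubiquitinases and their adaptors, CYLD, which removes linear and K63-type ubiquitin chains, and TNIP2 were upregulated with DAC + ATRA (1.29 and 1.27, limma adjusted p = 3.7e-10 and 0.0014).

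Of 5 death signalling genes, CASP8, DIABLO and CFLAR were upregulated with DAC + ATRA, CASP8, the initiator caspase, by a log2 FC of 0.87 (SE 0.20, limma adjusted p = 0.00080) and DIABLO, which antagonizes the inhibitors of apoptosis, by 0.72 (SE 0.19, adjusted p = 0.0027). Of 7 NF-κB and IKK genes, 2 (BCL3 and CHUK) were upregulated with DAC + ATRA and 1 (BCL3) with DAC, beside backgrounds of 25.5% and 22.2%. BCL3, an atypical IκB protein, was at 1.84 to 5.46 in untreated cells, 27.0 to 35.1 with DAC, 0.910 to 8.45 with ATRA and 59.7 to 72.6 with DAC + ATRA, and CHUK (IKKα) rose by 0.40 with DAC + ATRA (limma adjusted p = 0.0028).

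Of 19 genes known to be induced by TNF, 11 passed the filter, and of these 9 passed with DAC (9 higher, against 33.5% of all transcripts), 4 with ATRA (3 higher and 1 lower, against 6.97%) and 9 under the combination (8 higher and 1 lower, against 41.6%). CCL2, CXCL10 and PTGS2 passed the filter only through libraries with DAC, which favours a call. Without these genes, 6 of 8 passed with DAC and 6 of 8 under the combination. TNIP2 and BCL3, named above, passed the filter in the same way, as did RIPK1 and NFKBIB, which were not called with DAC or with DAC + ATRA. IRF1, an interferon regulatory factor, was at 53.3 to 53.7 in untreated cells, 111 to 132 with DAC, 287 to 389 with ATRA and 604 to 746 with DAC + ATRA (log2 FC 3.67, SE 0.14, limma adjusted p = 2.7e-17). CXCL10, a chemokine that interferon induces as well, rose by a log2 FC of 2.37 with DAC and 3.29 with DAC + ATRA (SE 0.41, limma adjusted p = 2.8e-07). IL1B, CCL2, ICAM1, CXCL8, TNFAIP2 and PTGS2 were upregulated with DAC + ATRA too, and TNFAIP8 was downregulated with ATRA and with DAC + ATRA (log2 FC -1.18 with the latter, limma adjusted p = 2.0e-09). Of 4 proteases that shed or process TNF-like ligands, ADAM17 (0.51) and SPPL2A (1.11) were upregulated and SPPL2B (-1.01) downregulated with DAC + ATRA. RELT, a TNF receptor family member outside the symbol rule, fell by 0.91 with DAC.

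**Figure D5:**
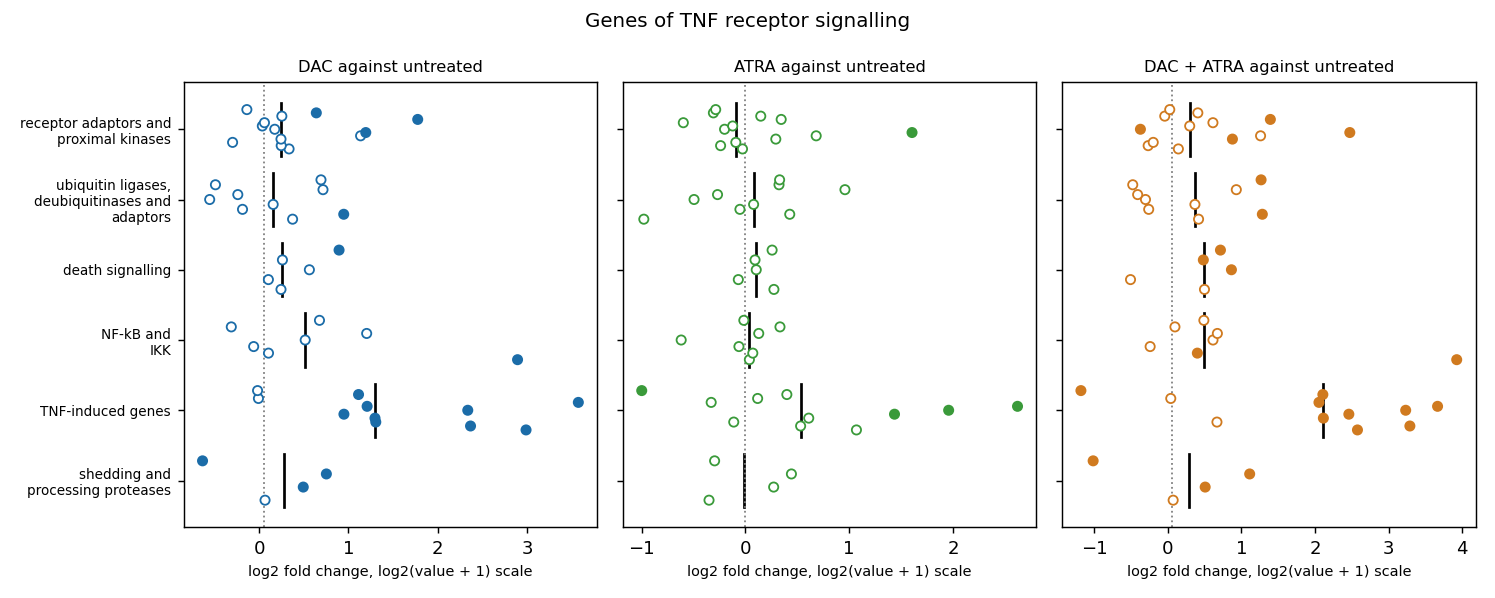
Log2 fold change against untreated cells of the 49 tested genes of TNF receptor signalling, in 6 lists, for DAC (left), ATRA (middle) and the combination (right). Filled points have a limma adjusted p under 0.01, black lines are list medians and the dotted line is the median of all 19373 transcripts. The TNF-induced genes have the highest list median, 1.30 with DAC and 2.12 with DAC + ATRA.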

How the data were processed

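RNA of 12 U937 libraries, 3 a group, had been depleted of ribosomal RNA and sequenced as strand-specific paired-end libraries. The authors aligned reads to hg38 with STAR and counted them with HTSeq, with FastQC and DESeq2 also named in the submitters' processing notes. Versions, counting mode and strand setting are not given in the sources used here, so antisense genes that overlap cannot be told apart. The deposited values (unit: signal) are reads per transcript divided by 1 size factor a library, 0.809 to 1.20. Whole reads were recovered from 100% of values within 0.01 read. Column headers give the group and a running number from 1 to 12, by which libraries are named.

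Transcripts that reached a value of 10 in 3 or more libraries (19373) were tested two-sided on log2(value + 1) with limma 3.58.1 (lmFit, then robust eBayes with a trend, in R 4.3.3), with Benjamini-Hochberg adjustment and the study's threshold of 0.01. Alternatives were edgeR 4.0.16 and DESeq2 1.42.0 on the recovered reads, TMM scaling, a pseudocount of 0.1, no filter, sums per symbol, protein-coding transcripts only, only the groups compared, a threshold of 0.05 and leaving out each library. On simulated data with 200 changed transcripts of 19373, limma found 41% of 2-fold and 86% of 4-fold changes, with 0 false calls. The simulation gave every transcript the same dispersion and changed far fewer transcripts than DAC did here. These shares therefore check the code and are no estimate for the comparisons above. Members, signalling lists and markers were chosen with earlier results of these data known. Every member was accounted for, and up to 2 genes of each signalling list called with DAC + ATRA were named in each direction. MLKL, CFLAR, RELT, MPO, CEBPA and 6 TNF-induced genes were named besides, after their values were seen. Promoters are from RefSeq (GRCh38.p14, 28 of 44 members matched) and transcript positions from GENCODE 44 on hg38. A marker list that holds a withheld item is not reported here.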

Additional observations from a re-analysis of the deposited data

Results flagged for a closer look

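TNFSF9 was singled out because the effect of each agent on it differed with the other agent present: the DAC × ATRA interaction was -0.97 on the log2 scale (SE 0.18, limma adjusted p = 0.0012). The log2 FC of TNFSF9 for ATRA was 1.37 without DAC and 0.40 with DAC, and the latter missed the threshold (limma adjusted p = 0.030). For DAC the log2 FC of TNFSF9 was 1.78 without ATRA and 0.81 with ATRA, and both passed. The interaction kept its sign and passed with edgeR (-0.97), with DESeq2 (-0.99) and without any 1 library. No cause was tested.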

How the results depend on the processing

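No paired analysis was possible because the columns of the matrix carry no replicate number. For the 19 members, 51 calls in the 6 pairwise comparisons and the interaction were recomputed under each alternative: 976 of 1010 values kept their direction and passed, 34 kept their direction and missed the threshold, and 0 reversed. These 34 concerned TNFRSF1A, TNFRSF10C, TNFRSF9, TNFSF14 and TNFSF9 (DAC against ATRA). Counts that moved by more than 1.5 times were as follows. For DAC + ATRA against DAC, 3 members became 8 at a threshold of 0.05, 6 with edgeR, 5 with DESeq2, 5 without a filter and 7 with only the groups compared, and 3 to 4 when single libraries were left out, the fourth being TNFRSF11A, TNFRSF13C or TNFSF9. TNFRSF21, TNFRSF9 and CD70 were in each of these sets. For the interaction, 1 became 2 at a threshold of 0.05, with edgeR, with DESeq2, with sums per symbol and without ATRA library 9, the range over left-out libraries being 1 to 2, and the added member was TNFRSF21 each time. For ATRA, the 5 signalling genes became 8 at a threshold of 0.05. Counts for DAC and for DAC + ATRA against untreated cells stayed within 1.5 times under every alternative. TMM scaling moved the median log2 FC of all transcripts with DAC from 0.05 to 0.01. Low counts limit the tested members with the fewest reads (TNFSF13B, TNFSF4, TNFRSF12A, TNFRSF10C and TNFRSF10B, with 106 to 184 reads over all libraries) and the members below the filter.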
